A study of Mus musculus with 6 samples.

Results

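Core histone and linker histone genes were examined in RNA sequencing of subcutaneous B16F10 tumours, as the 70 of 55349 rows of the deposited count table whose symbol names an H1, H2A, H2B, H3 or H4 gene of the numbered series. By family these are 11 H1, 18 H2A, 17 H2B, 12 H3 and 12 H4 genes. B16F10 is a pigmented mouse melanoma line. Of the 6 libraries, 3 came from tumours of cells labelled shControl with a genotype given as WT (replicates 1, 4 and 5), and 3 from tumours of cells labelled shSQLE with a genotype given as SQLE knockdown (replicates 1, 2 and 5). All tumours grew subcutaneously and the labels list no further treatment. The labels do not say whether the knockdown line was a clone or a pool, which hairpin it carried, or the strain and age of the host mice. Whether replicates are tumours of separate animals is also not stated, so a p-value reflects the variation among these libraries alone, and that may be technical. Values are given throughout in the order of replicates 1, 4 and 5 for shControl and 1, 2 and 5 for shSQLE. The series has 1 comparison, shSQLE against shControl, which asks how knockdown of Sqle, the squalene epoxidase gene of cholesterol synthesis, alters expression in tumours.

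H2A, H2B, H3 and H4 are the core histones around which DNA is wrapped in the nucleosome, and H1 is the linker histone that binds where DNA enters and leaves it. Most of their genes lie in clusters, are switched on while DNA is copied, and give messenger RNAs that end in a conserved stem-loop in place of a poly(A) tail. The stem-loop is bound by the protein Slbp, which is needed for processing and translation. H1f0 and H1f10 are different: they lie outside the clusters, are expressed independently of replication and give polyadenylated RNA, and H1f0 is known for accumulating in differentiated cells. H1f6, H1f7, H1f8 and H1f9 are linker histones of germ cells. The remaining 64 genes are called replication-dependent here. This is a label by symbol, and neither a stem-loop nor a link to replication was required. It takes in H2bc21, in whose annotated transcript no stem-loop was found. It leaves out H1f6, in whose transcript a stem-loop was found. By chromosome, 55 of the 70 genes lie on chromosome 13, 10 on 3, 2 on 6, 2 on 15 and 1 on 11 in the GENCODE M21 annotation of GRCm38.

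The stem-loop was looked for in the annotated transcripts, because it marks the replication-dependent class of RNA. The search was for GGCNCTTTTNAGNGCC on the transcribed strand, with the first N limited to T or C and paired with the last. It was found in 39 of the 70 genes, namely 4 H1, 10 H2A, 9 H2B, 8 H3 and 8 H4 genes. Among all 21901 protein-coding genes in the same annotation it was found in 45 (0.205%), a count from which histone genes were not removed. The sites of 8 genes that the results turn on, or that show the different forms, are given 5′ to 3′ with the stem-loop in capitals and the flanking bases in lower case.
H1f2: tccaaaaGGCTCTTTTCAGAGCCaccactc
H1f4: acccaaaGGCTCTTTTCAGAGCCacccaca
H2ac19: ctaaaaaGGCTCTTTTCAGAGCCacccact
H2ac20: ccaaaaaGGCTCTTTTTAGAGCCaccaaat
H2bc11: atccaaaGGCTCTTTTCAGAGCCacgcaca
H3c3: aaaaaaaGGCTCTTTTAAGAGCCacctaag
H4c8: aaccaaaGGCCCTTTTCAGGGCCgcccaca
H4c9: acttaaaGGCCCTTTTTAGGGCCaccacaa
The form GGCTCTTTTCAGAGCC was found in 24 genes of the H1, H2A, H2B and H3 families. The H4 genes carried other letters in the stem: 6 had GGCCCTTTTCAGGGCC and 2 had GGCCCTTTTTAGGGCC. In 21 of the 39 genes the annotated transcript ended within 100 bases of the stem-loop, as it does for H2ac19 (35 bases) and H3c3 (74 bases). In the other 18 it ran on for 151 to 4884 bases, as it does for H1f2 (840 bases) and H1f4 (1153 bases). H1f0, H1f10, H2bc4 and H2bc21 held no match in their annotated transcripts. Some other transcripts without a match are short as annotated. H2ac13 has 393 bases, where the site of H2ac11 starts at base 447, and H4c12 has 312 bases, where that of H4c6 starts at base 343. The lack of a match therefore does not show that a gene lacks the stem-loop.

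Promoter windows of 250 bases before to 50 bases after the start were at hand for 62 of the 70 genes, with 63 windows because H2bc6 has 2 (RefSeq, GRCm38.p6). They were searched on both strands for the TATA box letters TATAAA, the CCAAT box letters CCAAT and the octamer ATTTGCAT, a motif known from H2B promoters. CCAAT was found in 17 of 17 H2A, 15 of 15 H2B and 10 of 10 H3 windows, in 7 of 10 H1 and 3 of 11 H4 windows, and in 37.4% of all 32851 windows. The octamer was found in 7 of 15 H2B and 6 of 17 H2A windows, in 0 of 10 H1, 0 of 10 H3 and 0 of 11 H4 windows, and in 1.74% of all windows. Windows of H2A and H2B genes that stand head to head overlap, so 1 site can count for both families with any of these motifs. The octamers of H2ac1 and H2bc1, H2ac8 and H2bc8, and H2ac12 and H2bc12 lie in such overlapping windows. TATAAA was found in 8 of 11 H4, 11 of 17 H2A, 7 of 15 H2B, 4 of 10 H3 and 4 of 10 H1 windows and in 13.6% of all windows. Matches were counted anywhere in a window and not at a set distance from the start. In H4c6, for example, TATAAA opens the window, so the counts are not counts of placed TATA boxes. A pair of windows shows the difference between families, with these motifs in capitals and no overlap between them. H2bc8, an H2B gene lower in each shSQLE library, lies at chr13:23571150-23571449 on the plus strand, and H4c9, the H4 gene with the highest level, at chr13:22041313-22041612 on the minus strand.
H2bc8: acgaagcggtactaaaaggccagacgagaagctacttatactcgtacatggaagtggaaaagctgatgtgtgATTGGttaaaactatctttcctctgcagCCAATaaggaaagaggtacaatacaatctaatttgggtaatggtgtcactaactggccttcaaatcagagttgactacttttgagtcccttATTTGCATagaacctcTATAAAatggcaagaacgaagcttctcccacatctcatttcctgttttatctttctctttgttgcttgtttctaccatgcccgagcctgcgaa
H4c9: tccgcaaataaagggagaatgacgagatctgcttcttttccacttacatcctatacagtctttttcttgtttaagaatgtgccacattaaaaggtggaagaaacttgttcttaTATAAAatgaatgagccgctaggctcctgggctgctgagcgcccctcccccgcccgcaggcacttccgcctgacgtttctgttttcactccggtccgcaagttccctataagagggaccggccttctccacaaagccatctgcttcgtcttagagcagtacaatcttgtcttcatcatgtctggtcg
A match is a run of letters and not a measured binding site.

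Across the series, libraries held 16408622 to 19142185 expected counts, and 13268 genes passed a filter on low counts and were tested with edgeR. Sqle stood at 146, 151 and 148 CPM (counts per 1e6 counts, scaled with TMM factors) in the shControl libraries and at 70.4, 66.8 and 77.1 CPM in the shSQLE libraries, so the targeted gene was lower in each library labelled as a knockdown. Its log2 fold change was -1.05 (SE 0.17). At a threshold of 0.05 on the Benjamini-Hochberg adjusted p of edgeR's quasi-likelihood fit, 0 genes passed and Sqle did not (adjusted p = 0.9996), while 413 had an unadjusted p under 0.05 and DESeq2 called 6. All 7 melanocyte markers were present, with summed levels of 12740 to 16600 CPM. Markers of host cells other than erythroid cells were lower and uneven. Summed levels were 62.6 to 405 CPM for 7 macrophage, 53.0 to 517 CPM for 6 fibroblast and 20.8 to 87.5 CPM for 5 endothelial markers. The 7 T and NK cell markers summed to 0.394 to 9.18 CPM and the 4 B cell markers to 2.76 to 5.03 CPM. The 4 adipocyte markers summed to 11.8 to 286 CPM and the 5 skeletal muscle markers to 10.6 to 1373 CPM. The 6 erythroid markers summed to 2854 to 28650 CPM. In shSQLE replicate 1 they (28650 CPM) were above the melanocyte markers (16600 CPM). Of 6 germ cell markers, 5 were at 0 in all libraries. In such mixed tissue, fewer cells of a type and less RNA per cell cannot be told apart.

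Histone genes as a whole were a small part of these libraries, and a single linker histone made up most of it. The 70 genes took 0.0477% to 0.0707% of the counts of a library, and H1f0 alone held 76.5% to 86.2% of that. H1f0 reached 535, 453 and 384 CPM in the shControl libraries and 440, 393 and 442 CPM in the shSQLE libraries. The groups overlapped, with both the highest and the lowest value in shControl, and the log2 fold change was -0.10 (SE 0.21, edgeR unadjusted p = 0.634). The 64 replication-dependent genes together held 1143 to 2352 counts per library, or 58.0 to 139 CPM. For comparison, H3f3b, which encodes the replication-independent variant H3.3 from a polyadenylated RNA, alone stood at 681 to 951 CPM. Whether RNA was selected by its poly(A) tail is not stated in the labels, which name total RNA as input.

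A level of 0 or near 0 was common among the 70 genes. In 7 of them (H1f7, H2ac1, H2ac15, H2ac18, H2bc1, H2bc14 and H4c11) every library was at 0, and a count of 0 allows up to 3 counts, which is 0.152 to 0.177 CPM depending on the library (counting error only). Another 26 had some counts but did not pass the filter, with at most 10 counts in any library. The germ cell genes H1f6, H1f8 and H1f9 were among them. The 37 genes that passed were 5 H1, 7 H2A, 9 H2B, 8 H3 and 8 H4 genes. Of these, 10 had a mean below 1 CPM, 21 lay between 1 and 5 CPM, 5 between 5 and 30 CPM, and H1f0 alone was above 100 CPM.

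Ordered by level per length (mean CPM per kilobase of effective length), H1f0 came first with 241, then the H2B gene H2bc4 with 25.5 and the H2A gene H2ac19 with 22.2. The H3 gene H3c3 followed with 18.4, the H4 gene H4c9 with 18.1 and the H2B gene H2bc11 with 16.9. The other members named for their level were H2bc8 with 8.46, H4c2 with 6.67, H2ac11 with 6.44, H1f2 with 6.22, H3c1 with 4.53, H2ac8 with 4.46, H4c8 with 4.09, H3c8 with 3.98 and H1f10 with 1.69 CPM per kilobase. The library values of H2bc4, H2ac19, H3c3, H4c9 and H2bc11 vary enough that their order is not firm: H3c3 alone ranged over 3.04 to 10.6 CPM and H4c9 over 3.20 to 13.3 CPM. The place of H2ac19 also depends on how reads were divided among near copies, which is not measured. Genes whose transcript ends within 100 bases of the stem-loop had a median of 2.57 CPM per kilobase, and those with a longer annotated end 0.939. Those without a match in the annotated transcript had 0.389, although that group holds the highest level of all, H1f0. It also holds short annotated transcripts such as those of H2ac13 and H4c12, so its genes are not shown to lack the stem-loop. Effective lengths differ between these groups, with medians of 263, 1032 and 222 bases (in that order).

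**Figure D1:**
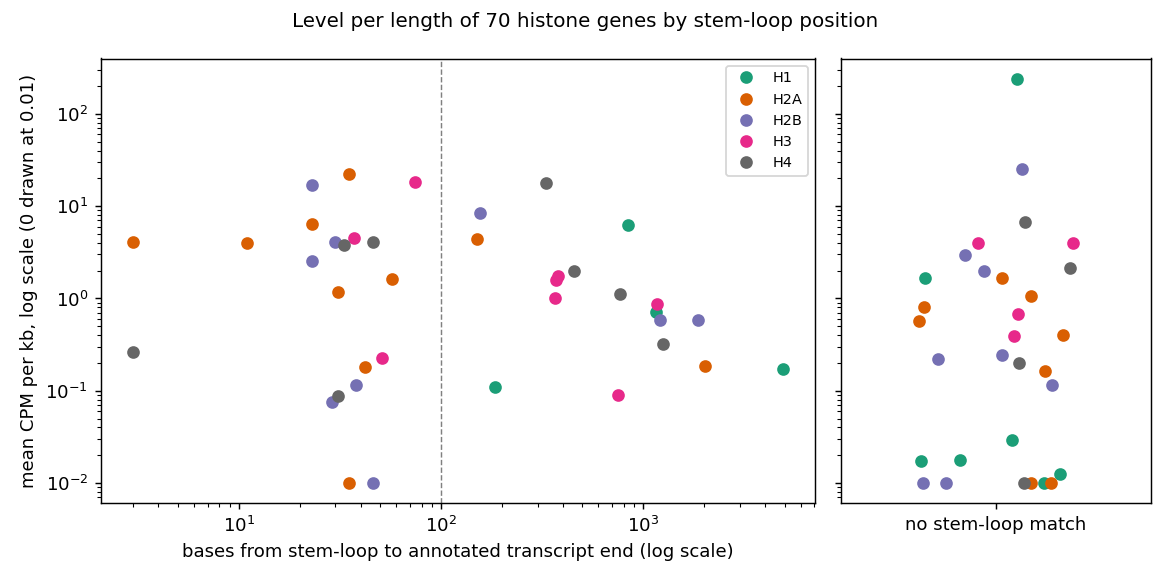
Mean level of the 70 histone genes in CPM per kilobase (log scale, 0 drawn at 0.01) against the bases between the stem-loop and the annotated transcript end (log scale; the dashed line is at 100 bases), with the 31 genes without a match on the right and colours for families. H1f0, at 241 CPM per kilobase, stands apart from all genes with a stem-loop match, which reach at most 22.2.

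Because histone genes are near copies, the whole-number property of the counts was checked for each member. Expected counts of 8 members were not whole in at least 1 library: H1f4, H1f10, H2ac19, H2bc6, H2bc18, H3c13, H3c14 and H4c2. All 8 passed the filter, and their values are uncertain. A whole number did not mean a sequence of its own. In transcript windows of 100 bases, the share found exactly in another gene was 10.2% to 100% with a median of 85.9% for the 8, and 0% to 100% with a median of 35.7% for the 62 members that were whole in every library. It was over 50% in 30 of the 70. H2ac18 and H2ac19 show the extreme: every window of both is found in another gene, H2ac18 was listed at 0 in all libraries, and H2ac19 received 88.9 to 189 counts. How reads are divided among such copies is not measured, and which genes hold the shared windows, inside or outside the family, was not examined.

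Between the groups, most tested histone genes were somewhat lower in shSQLE, and none passed the test. Of the 37, 33 had a negative and 4 a positive log2 fold change, with a median of -0.40, while over all 13268 tested genes 52.6% were negative and the median was -0.02. With edgeR, 0 of the 37 passed an adjusted p of 0.05 (each adjusted p = 0.9996), against a background of 0% of all tested genes. At an unadjusted p under 0.05 there was 1 member, H1f4, which was lower, against a background of 3.11% in either direction and 1.62% lower. DESeq2 also had 1 member at an unadjusted p under 0.05 and called none of them, and limma voom had 3 and called none. The groups did not overlap for 5 members, all lower in shSQLE, where 3.35% of all tested genes were lower and 3.08% higher without overlap. The 4 with positive values were H1f10 (1.87), H2bc18 (0.37), H2ac24 (0.23) and H4c4 (0.17). By family the medians were -0.60 for H1, -0.33 for H2A, -0.48 for H2B, -0.33 for H3 and -0.40 for H4.

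The medians rested on single libraries. Without shControl replicate 4 the median over the members was -0.03, with 17 of 37 positive, and without shSQLE replicate 2 it was -0.16, with 13 of 37 positive. Without each of the other 4 libraries in turn it lay between -0.62 and -0.44.

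**Figure D2:**
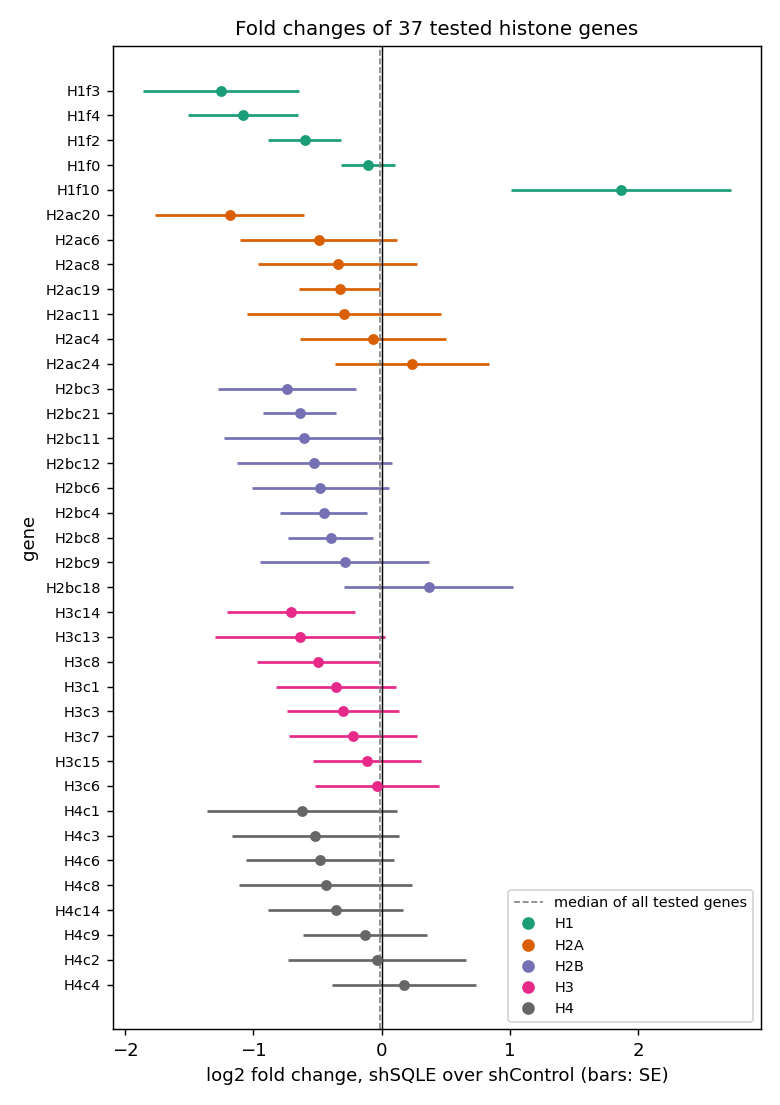
Log2 fold change of shSQLE over shControl for the 37 tested histone genes (points, coloured by family) with the SE from edgeR's quasi-likelihood test (bars); the dashed line is the median of all tested genes. Of the 37 points, 33 lie left of 0, many with bars that reach it, and H1f10 is the only point above 1.

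Of the replication-dependent linker histone genes, 3 passed the filter and all 3 had lower means in shSQLE. H1f2 and H1f4 encode somatic subtypes of H1. H1f2 stood at 10.8, 9.85 and 9.45 CPM in the shControl libraries and at 7.04, 4.42 and 8.39 CPM in the shSQLE libraries. Each shSQLE library was below each shControl library, by a log2 fold change of -0.60 (SE 0.29, edgeR unadjusted p = 0.0672), which was -0.38 without shSQLE replicate 2. H1f4, whose counts were not whole in 4 libraries, stood at 1.90, 2.00 and 1.03 CPM in the shControl libraries and at 0.825, 0.711 and 0.772 CPM in the shSQLE libraries. The groups did not overlap, although shControl replicate 5 lay closer to shSQLE than to the other shControl libraries. Its log2 fold change was -1.08 (SE 0.43, edgeR unadjusted p = 0.0327) and between -1.33 and -0.92 without each library in turn. H1f3, another somatic subtype, stood at 2.72, 1.77 and 0.765 CPM in shControl and at 1.01, 0.305 and 0.883 CPM in shSQLE, so the groups overlapped (log2 fold change -1.26, SE 0.61, edgeR unadjusted p = 0.0694). The exact two-sided permutation p was 0.1 for H1f2 and for H1f4, the smallest that 3 libraries against 3 can give.

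Summed over H1f1 to H1f5, the replication-dependent linker histones reached 15.5, 13.6 and 11.2 CPM in the shControl libraries and 8.88, 5.43 and 10.1 CPM in the shSQLE libraries. The sum in shSQLE was 60.5% of that in shControl, and the groups did not overlap. Most of this sum was H1f2, with means of 10.03 of 13.45 CPM in shControl and 6.614 of 8.135 CPM in shSQLE. It therefore largely repeats the result for that gene. H1f10, a linker histone outside the clusters, went the other way in 2 libraries only. It stood at 0.926, 0.295 and 0.928 CPM in the shControl libraries and at 0.282, 4.87 and 2.76 CPM in the shSQLE libraries. The shSQLE group held both the highest and the lowest value (log2 fold change 1.87, SE 0.86, edgeR unadjusted p = 0.058), and the fold change was 1.08 without shSQLE replicate 2. The counts of H1f10 were not whole in 1 library.

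**Figure D3:**
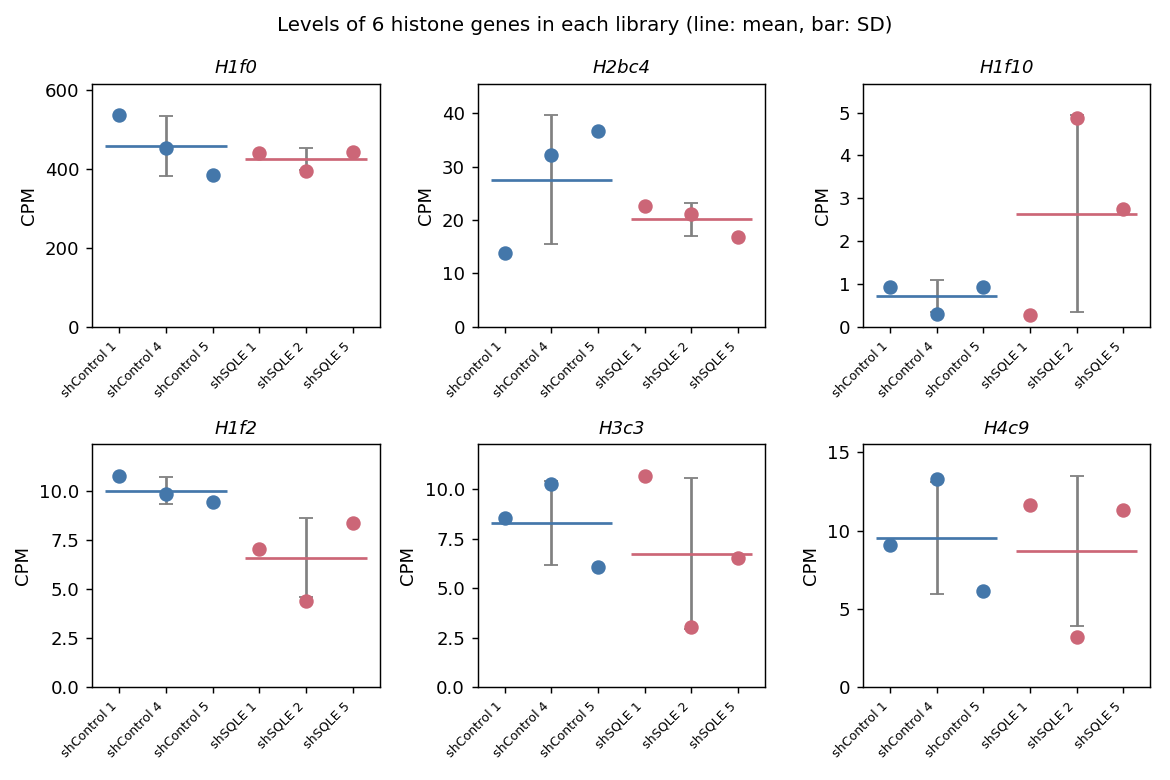
CPM of 6 histone genes in each library, with the group mean (line) and SD (bar, n = 3 per group); every axis starts at 0. H1f2 is lower in each shSQLE library, H1f0, H2bc4, H3c3 and H4c9 overlap between groups, and H1f10 is high in shSQLE replicates 2 and 5 but not in replicate 1.

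Of the 9 tested H2B genes, 8 had negative fold changes, and the groups overlapped for 7. The highest, H2bc4, which has no stem-loop in its annotated transcript, stood at 13.8, 32.1 and 36.6 CPM in the shControl libraries and at 22.6, 21.1 and 16.7 CPM in the shSQLE libraries. Its lowest and its highest value were both in shControl (log2 fold change -0.45, SE 0.34, edgeR unadjusted p = 0.218). H2bc21, likewise without a match, stood at 5.61, 6.61 and 5.24 CPM in shControl and at 4.11, 4.01 and 3.09 CPM in shSQLE. Each shSQLE library was lower (log2 fold change -0.64, SE 0.28, edgeR unadjusted p = 0.0518), and the fold change lay between -0.71 and -0.51 when 1 library was left out. H2bc8 stood at 3.70, 3.72 and 3.99 CPM in shControl and at 3.55, 2.03 and 3.09 CPM in shSQLE, which did not overlap by a narrow margin (log2 fold change -0.40, SE 0.33). H2bc11 ranged over 2.08 to 7.97 CPM in shControl and 1.17 to 5.63 CPM in shSQLE. H2bc3 was at -0.74 (SE 0.54), with overlapping groups.

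H2A genes were led by H2ac19, at 6.33, 6.01 and 10.3 CPM in the shControl libraries and at 6.43, 4.51 and 7.12 CPM in the shSQLE libraries. The groups overlapped, and the log2 fold change was -0.33 (SE 0.32). The counts of H2ac19 were not whole in any library and every window of its transcript is found in another gene. Its lead is therefore uncertain. H2ac20 was low in all libraries, at 0.817, 0.649 and 0.546 CPM in shControl and 0.394, 0.102 and 0.386 CPM in shSQLE. It was lower in each shSQLE library (log2 fold change -1.19, SE 0.58, edgeR unadjusted p = 0.0725), from 2 to 15 counts per library. H2ac11 ranged over 0.765 to 2.48 CPM in shControl and 0.254 to 2.82 CPM in shSQLE, so its highest and its lowest value were both in shSQLE. H2ac8 was at -0.34 (SE 0.62), and its sign turned without shControl replicate 4 or without shSQLE replicate 2.

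No H3 or H4 gene separated the groups. H3c3 stood at 8.55, 10.3 and 6.06 CPM in the shControl libraries and at 10.6, 3.04 and 6.51 CPM in the shSQLE libraries. Its extremes were both in shSQLE (log2 fold change -0.30, SE 0.43). H4c9 stood at 9.10, 13.3 and 6.17 CPM in shControl and at 11.6, 3.20 and 11.3 CPM in shSQLE, again with the lowest value in shSQLE replicate 2 (log2 fold change -0.13, SE 0.48). The sign of H3c3 turned without shSQLE replicate 2, and that of H4c9 without either shSQLE replicate 2 or shControl replicate 4. H3c14, with counts that were not whole, was at -0.71 (SE 0.50), H3c8 at -0.50 (SE 0.47) and H3c1 at -0.36 (SE 0.47). H4c8 was at -0.43 (SE 0.67) and H4c2, not whole in any library, at -0.04 (SE 0.69).

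Sums over a family keep reads that near copies share within that family, though not all reads shared with genes outside it. These sums gave the same picture. The H2A genes summed to 14.8, 17.6 and 16.2 CPM in the shControl libraries and to 17.3, 7.36 and 15.4 CPM in the shSQLE libraries. The H2B genes summed to 32.0, 59.3 and 51.2 CPM in shControl and to 41.7, 30.5 and 29.9 CPM in shSQLE. For H3 the sums were 18.8, 23.5 and 12.9 CPM against 20.3, 8.41 and 14.3 CPM. For H4 they were 15.3, 24.7 and 8.95 CPM against 17.7, 6.29 and 18.9 CPM. In each of these families the groups overlapped, and shControl replicate 4 had the highest sum. Relative to shControl, the shSQLE mean was 82.6% for H2A, 71.6% for H2B, 78.0% for H3 and 87.7% for H4.

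Many members had their extremes in the same libraries. Of the 37 tested members, 24 had their lowest value in shSQLE replicate 2 and 21 their highest in shControl replicate 4, or 64.9% and 56.8%, where over all tested genes the shares were 20.7% and 16.7%. Summed over the 64 replication-dependent genes, levels were 96.3, 139 and 100 CPM in the shControl libraries and 106, 58.0 and 88.6 CPM in the shSQLE libraries. The highest library thus held 2.39 times the lowest, against 1.39 times for H1, which is mostly H1f0. For H4 the ratio was 3.93, and for the 39 genes with a stem-loop match, which include H1f6, it was 3.05. H2bc4 and H2bc21, both without a match, held a sizeable part of the sum over the 64 genes. Together they stood at 19.4, 38.7 and 41.9 CPM in shControl and at 26.7, 25.1 and 19.8 CPM in shSQLE. Their order of libraries differed, with the highest sum in shControl replicate 5 and the lowest in shControl replicate 1.

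**Figure D4:**
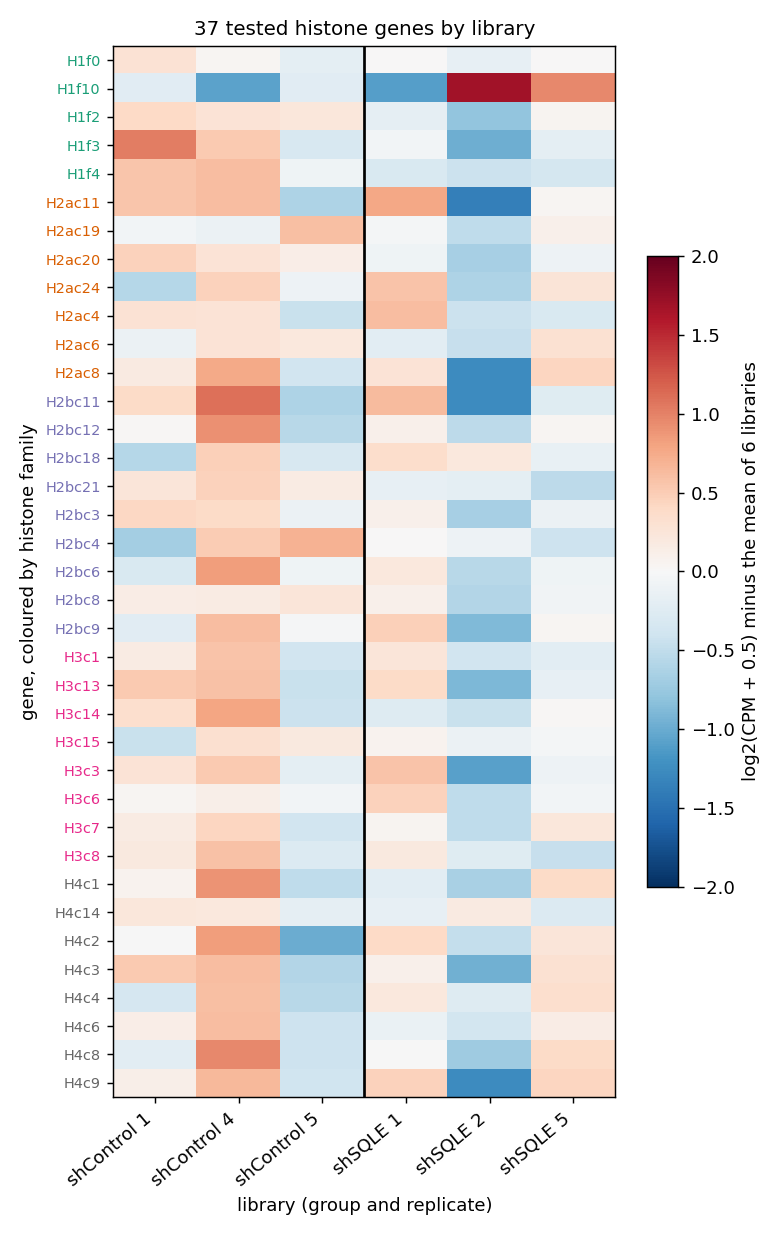
Level of each of the 37 tested histone genes in the 6 libraries, as log2(CPM + 0.5) minus the mean of the gene over the libraries (colour), with gene names coloured by family and a line between the groups. The extremes fall in the same columns for many genes: shControl replicate 4 is highest for 21 genes and shSQLE replicate 2 lowest for 24.

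Some other RNAs without a poly(A) tail had their extremes in the same libraries. Of the 10 listed (in 11 rows of the table), 5 were tested, all 5 with negative fold changes (median -0.68) and 0 called. Rn7s1 and Rn7s2, copies of the RNA of the signal recognition particle that were named after their values were seen, summed to 48.1, 114 and 8.57 CPM in the shControl libraries and to 50.1, 7.05 and 50.8 CPM in the shSQLE libraries. As for the histone genes, shControl replicate 4 was highest and shSQLE replicate 2 lowest. Rpph1, the RNA of ribonuclease P, stood at 1.63, 10.2 and 2.18 CPM in shControl and 2.99, 1.07 and 2.32 CPM in shSQLE. Rmrp, the RNA of a related ribonuclease with counts that were not whole, ranged from 0.101 CPM in shSQLE replicate 2 to 7.61 CPM in shControl replicate 4. Rn7sk, an RNA that binds Hexim1 protein and was chosen with its values known, was also highest in shControl replicate 4 (9.38 CPM). Its lowest value was in shControl replicate 5, and shSQLE replicate 2 (3.35 CPM) was close to the other shSQLE libraries. Short genes shifted too. The median deviation from the mean of all libraries over 587 tested genes with an effective length under 500 bases was 0.26 (log2) in shControl replicate 4 and -0.49 in shSQLE replicate 2, where the tested histone genes had 0.52 and -0.51. In shControl replicates 1 and 5 it was -0.11 and -0.12 for short genes and 0.17 and -0.28 for histone genes, and in shSQLE replicates 1 and 5 it was 0.17 and 0.28 against 0.11 and 0.01. The median effective length was 482 bases for the tested histone genes and 2155 bases for all tested genes. In a fit with the log2 level of Rn7s1 and Rn7s2 as a covariate, chosen after seeing the data, the members' median was -0.24 with 7 of 37 positive. Of 8 mitochondrial messenger RNAs, 5 were tested, all 5 negative with a median of -0.33 and 0 called. The 8 summed to 22930, 20340 and 28620 CPM in the shControl libraries and to 18190, 28650 and 9270 CPM in the shSQLE libraries. Their lowest sum was in shSQLE replicate 5, and shControl replicate 5 and shSQLE replicate 2 were nearly equal at the top. The part of transcript length and of RNA selection in the histone result was not tested.

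**Figure D5:**
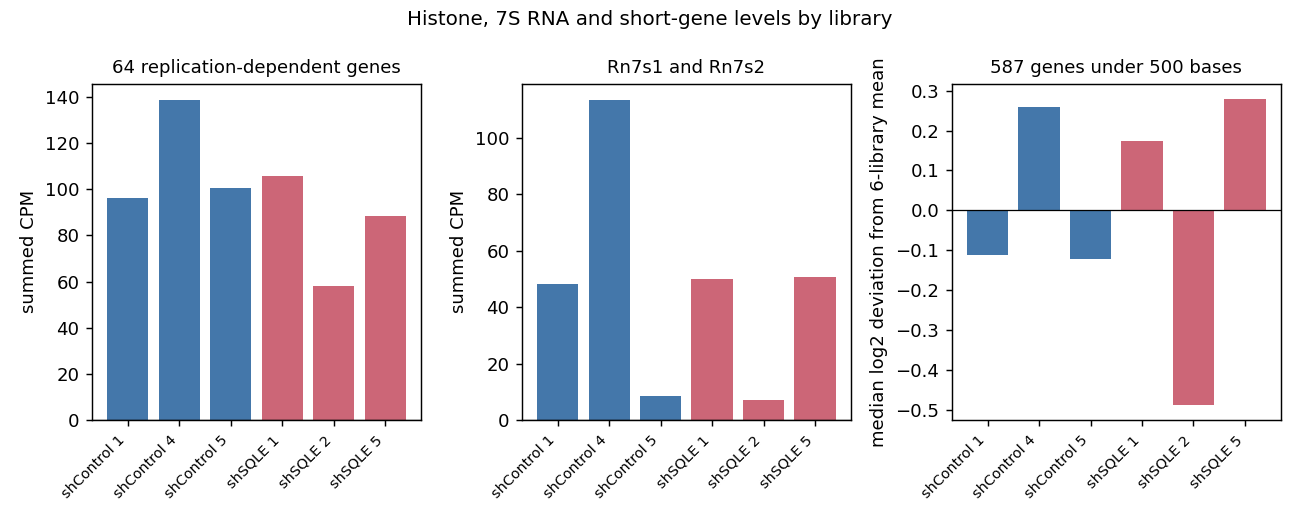
Summed CPM of the 64 replication-dependent histone genes (left), summed CPM of Rn7s1 and Rn7s2 (middle) and the median log2 deviation from the mean of 6 libraries over 587 tested genes with an effective length under 500 bases (right), for shControl (blue) and shSQLE (red) libraries. In all 3 panels shControl replicate 4 is above the other shControl libraries and shSQLE replicate 2 is the lowest of all.

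Lists of genes that act with histones had medians near or above 0. Of 25 DNA replication genes, 21 had positive fold changes (median 0.14) and 0 were called by edgeR. Mcm2, a subunit of the replication helicase, was at 0.45 (SE 0.21) and Cdt1, which loads that helicase, at 0.46 (SE 0.23). Of 18 genes of G2 and mitosis, 13 were positive with a median of 0.19, with the checkpoint kinase gene Bub1b at 0.25 (SE 0.16) and the kinetochore gene Cenpf at -0.33 (SE 0.24). Their summed levels were lowest in shControl replicate 1 for both lists, 3007 and 1930 CPM, and not in shSQLE replicate 2, where they were 3775 and 2616 CPM. Of 16 genes for histone RNA synthesis and processing, 9 were positive with a median of 0.04, and the 2 with the smallest p were Snrpd3 at 0.32 (SE 0.18) and the cap-binding subunit Ncbp2 at 0.22 (SE 0.19). Of 21 histone chaperones, 12 were positive with a median of 0.05. Chaf1b, a subunit of the factor that places histones on new DNA, was at 0.33 (SE 0.22), and Atrx, a remodeller that works with the H3.3 chaperone Daxx, at -0.45 (SE 0.32). In these 4 lists 0 genes were called and 0 had an unadjusted p under 0.05. The difference between these lists and the histone genes was not tested.

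Variant histones outside the numbered series are mostly made from polyadenylated RNA, and 10 of 12 were tested, 7 of them with positive fold changes, a median of 0.07 and 0 called. H2az1, which encodes the H2A.Z variant, stood at 452, 649 and 425 CPM in the shControl libraries and at 639, 480 and 728 CPM in the shSQLE libraries (log2 fold change 0.28, SE 0.26). H2aw was at -0.45 (SE 0.29), with counts that were not whole in 3 libraries. The H3.3 genes, named after their values were seen, differed in spread. H3f3a ranged from 194 CPM to 569 CPM, in shSQLE replicate 2 and shControl replicate 4, the same lowest and highest libraries as the replication-dependent sum. H3f3b ranged from 681 to 951 CPM between the same libraries. The effective lengths are 578 bases for H3f3a and 1634 bases for H3f3b.

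Many H2A and H2B genes stand head to head and share the stretch between their start sites. In the GRCm38 annotation, 14 pairs of histone genes had diverging start sites within 1000 bases of each other, 13 of them an H2A with an H2B gene. In 5 pairs both genes were tested. H2ac8 and H2bc8, with 176 bases between their starts, had log2 fold changes of -0.34 and -0.40, and both were lowest in shSQLE replicate 2. H2ac11 and H2bc11 were at -0.30 and -0.61, again both lowest there, and so were H2bc9 and H3c7 at -0.29 and -0.23. H2ac20 and H2bc21 were at -1.19 and -0.64, with their lowest values in different shSQLE libraries. H2ac6 and H2bc4 had near fold changes, -0.49 and -0.45, but levels of 0.417 and 23.8 CPM, and H2bc4 was lowest in shControl replicate 1 where H2ac6 was lowest in shSQLE replicate 2. The lowest library was the same in 3 of these 5 pairs, each time shSQLE replicate 2. That library was the lowest for 24 of the 37 tested members (64.9%). Whether pairs share a lowest library more often than other members was not tested.

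Outside the family, the genes whose log2 level over the 6 libraries was most like the log2 sum of the replication-dependent genes were Hexim1, Lin28b, Sh3yl1, Svbp and Tmem126b, with Pearson correlations of 0.997, 0.997, 0.986, 0.985 and 0.984. These are the 5 highest of 13231 genes, of which 57 were above 0.95 over the same 6 libraries, and they are given as a description. Hexim1 stood at 61.1, 74.2 and 62.0 CPM in the shControl libraries and at 65.8, 45.3 and 58.2 CPM in the shSQLE libraries, the same order of libraries as the histone sum at both ends.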

How the data were processed

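The 6 RNA sequencing libraries of tumours were analysed from 1 table of expected counts that the authors deposited. The tools listed, per the submitters' processing notes, are STAR, RSEM, FastQC and DESeq2, on build GRCm39. The sources used here give neither the annotation release nor the strand setting. Expected counts need not be whole: 11.4% to 12.7% of values above 0 in a library were not. Effective lengths are those deposited by the authors. The members and lists were chosen with earlier results of these data known.

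Groups and replicate numbers came from the titles. Counts were rounded, filtered with filterByExpr (minimum count 10, minimum total 15), scaled with TMM and tested with edgeR 4.0.16 (glmQLFit with robust=TRUE, glmQLFTest, group as the only term, R 4.3.3) over 13268 genes, taking an adjusted p (Benjamini-Hochberg) under 0.05 as past the threshold. The SE is the fold change divided by the square root of F. CPM values use the unrounded counts. Single genes were also compared with an exact two-sided permutation test. The scripts were tested on simulated counts. All pairs of libraries differed by more than sampling noise. DESeq2 1.42.0 and limma 3.58.1 were alternatives.

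Named genes are Sqle, the 10 members with the smallest p, the 3 members per family with the highest CPM per kilobase, the 2 members of each gene list about histones or the cell cycle with the smallest p, and the 5 genes most alike. Any other is said to be named after its values were seen, or is given to account for a member or pair. Stem-loops and shared windows were searched in GENCODE M21 transcripts (GRCm38), matched by transcript ID without version for all 70 members; the deposited length was the same for 64 of the 64 members with 1 transcript. Promoters came from RefSeq. The intervals and limits from counts cover counting error only. Figures were drawn with matplotlib 3.10.9.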

Additional observations from a re-analysis of the deposited data

How the results depend on the processing

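The counts of histone genes past the threshold stayed at 0 under every alternative run. Over all genes, the count of 0 was 41 with the replicate block and 6 with DESeq2, and 0 to 31 when 1 library was left out, the 31 without shSQLE replicate 1. The number of positive members, 4 of 37, was 12 of 63 with no filter, 7 with the 7S RNA covariate (chosen after seeing the data), 2 of 29 among members whole in every library, and 3 to 17 when 1 library was left out. The median of -0.40 lay between -0.62 and -0.03 when 1 library was left out and between -0.47 and -0.24 under the other alternatives except the replicate block. With the replicate block, the median was 0.21 and 23 of 37 members were positive. That fit rests on 2 shared numbers, whose libraries had deviations that correlated at -0.13 and 0.05, so the numbers are not taken as pairs. In it the fold changes were 0.58 for H2ac11, 0.56 for H2ac8, 0.36 for H2bc11, 0.17 for H3c1, 0.21 for H3c3, 1.29 for H4c2, 0.81 for H4c8 and 0.61 for H4c9, all of them negative as reported. With 1 library left out, the sign turned for H1f0 (-0.22 to 0.025, without shControl replicate 1) and H4c8 (-0.89 to 0.45, without shControl replicate 4). It turned without shSQLE replicate 2 for H2ac11 (-1.10 to 0.21) and H3c3 (-0.80 to 0.051). It turned without either shSQLE replicate 2 or shControl replicate 4 for H2ac8 (-0.72 to 0.11), H4c2 (-0.51 to 0.81) and H4c9 (-0.39 to 0.27). H4c2 was 0.30 with limma voom and 0.52 with the 7S RNA covariate. The cause was not tested. Family sums of H2A turned without shSQLE replicate 2 (0.02), those of H4 without it (0.17) or shControl replicate 4 (0.24), and those of H1 without shControl replicate 1 (0.01). Of 370 values for named genes, 349 kept direction and side of the threshold; Sqle passed with DESeq2 (-1.05, adjusted p = 8.84e-05). Most histone genes lie below 5 CPM, which limits what a test of 3 libraries a group can show.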
